A study of Mus musculus with 16 samples.

Results

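The vacuolar proton pump was followed through 10 of its subunit genes, Atp6v0d2, Atp6v0d1, Atp6v0a1, Atp6v0a2, Atp6v0b, Atp6v0c, Atp6v1a, Atp6v1b2, Atp6v1h and Atp6v1d, in a set of 16 Affymetrix arrays. The members were all probe sets annotated to these symbols, and Atp6v0d2 was itself chosen by its KI minus WT difference in regulatory T cells. The genes of that list had 20 probe sets for 9 of the 10 genes, out of 17097 genes with a probe set of their own in the table, and Atp6v0c matched none.

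The arrays measured RNA of CD4 T cells sorted out of NOD/LtJ spleens at 6 weeks of age and lysed straight away, and the mice had no treatment. KI Tregs came from mice with the knock-in allele Foxp3tm2Ayr (also labelled Foxp3gfp), and WT Tregs came from Tg(Foxp3-EGFP/cre)1aJbs mice, in which a transgene expresses an EGFP and Cre fusion under Foxp3 control. KI Tconv and WT Tconv are the conventional T cells labelled with the same 2 genotypes, so every group carries a Foxp3 reporter and none is unmodified. There were 4 arrays in each of the 4 groups. The labels state a CD3+CD4+GFP- sort for every sample, also for those called Treg, which leaves the Treg gate unclear. They do not tie arrays to individual mice, so the p-values measure only the spread between these samples, which may be technical.

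The vacuolar proton pump (V-ATPase) uses ATP to move protons into lysosomes, endosomes and other compartments, and in some cells across the plasma membrane. Its cytosolic V1 sector splits ATP, and its membrane V0 sector carries the protons through a ring of c subunits beside subunit a. Subunit d sits on that ring and joins it to the central rotor, and it exists as the broadly made Atp6v0d1 and as Atp6v0d2, which is best known from osteoclasts, macrophages, kidney and epididymis. The pump also takes part in signalling to the kinase complex mTORC1 at the lysosome. Many of its subunit genes belong to the lysosomal gene set bound by the transcription factors TFEB, TFE3 and MITF at sites containing the letters CACGTG.

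Those letters were searched in the RefSeq promoters of the members (GRCm38.p6), to show where subunit genes of this list carry the site. A promoter here is the stretch from 250 bases before to 50 after a listed start. Of the 10 members, 6 had an entry in the table, and Atp6v0d2, Atp6v0a2, Atp6v1b2 and Atp6v1h had none. CACGTG, which reads the same on both strands, occurred in Atp6v0b, Atp6v0d1 and Atp6v1a, and in 7.15% of all 32851 promoter entries. The longer TCACGTGA, which contains it, occurred in Atp6v0d1 and Atp6v1a, and in 0.974% of all entries. The 80 bases around the site are shown 5′ to 3′ on the strand of the gene, the minus strand in each case, with CACGTG in capitals. They lie at chr4:117887323-117887402 for Atp6v0b, chr8:105566025-105566104 for Atp6v0d1 and chr16:44139348-44139427 for Atp6v1a.
Atp6v0b: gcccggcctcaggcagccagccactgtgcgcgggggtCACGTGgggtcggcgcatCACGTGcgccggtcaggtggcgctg
Atp6v0d1: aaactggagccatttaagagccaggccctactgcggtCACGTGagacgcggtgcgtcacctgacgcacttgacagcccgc
Atp6v1a: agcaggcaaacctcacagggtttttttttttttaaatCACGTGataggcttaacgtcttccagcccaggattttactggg
The site begins 3 bases before the listed start in Atp6v0d1, so it spans that start. In Atp6v1a it begins 131 bases before the start. Atp6v0b holds the site in 2 places, the farther of them beginning 36 bases before the start. A match is a description of these letters and not evidence of binding. The expression of these 3 genes is given below with that of the other subunits.

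The values are RMA values on a log2 scale, which ran from 1.95 to 13.9 with array medians of 3.69 to 3.76. The 23 nonspecific control probe sets reached at most 4.71 (median 2.60), and gene values below about 5 are called near background here. Each gene was read from its probe set with the highest mean, and levels of different genes cannot be set against each other. A gene was tested where that probe set exceeded 5 on at least 4 arrays, which left 8139 genes. Of the members, 8 passed this filter, Atp6v0a1 did not, and Atp6v0d2 passed through the 4 KI Treg arrays alone. Foxp3 averaged 9.76 in KI Tregs, 9.86 in WT Tregs, 3.69 in KI Tconv and 4.63 in WT Tconv, so the arrays follow their Treg and Tconv labels. The mean of 7 T cell markers lay between 10.5 and 10.8 on all 16 arrays. Some markers of other cells were also well above background on some arrays. The highest values were 12.5 for Hba-a1 (erythroid cells), 11.1 for S100a9 (neutrophils), 9.13 for Jchain (plasma cells) and 8.39 for Ms4a1 (B cells). Of the markers with a probe set, 3 of 7 for neutrophils and 4 of 7 for B cells exceeded 5 on no array. The part of other cells in the values was not tested.

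Atp6v0d2 was well above background only in KI Tregs. The probe set that represents it read 6.04, 6.19, 5.95 and 5.89 on the KI Treg arrays, against 3.59, 3.80, 4.05 and 3.81 on the WT Treg arrays. It read 3.46, 3.26, 3.53 and 3.55 in KI Tconv, against 3.48, 3.39, 3.44 and 3.31 in WT Tconv. The 4 KI Treg arrays thus lay apart from the other 12, all of which were below the highest nonspecific control value of 4.71.

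The KI Treg minus WT Treg difference of Atp6v0d2 was 2.21 (SE 0.143, n = 4 each), a 4.61-fold difference between group means of 6.02 ± 0.13 and 3.81 ± 0.19 (SD). This contrast chose the gene, so the value is a description and carries no test. Since WT Tregs lie near background, the fold is compressed. Against KI Tconv, KI Tregs were higher by 2.57, or 5.94-fold, which uses the same KI Treg arrays and is likewise a description.

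The second Atp6v0d2 probe set was also highest in KI Tregs, at lower values. It read 5.23, 4.73, 5.08 and 5.26 in KI Tregs, against 3.10, 3.12, 3.41 and 3.23 in WT Tregs. It ranged from 2.61 to 2.98 in KI Tconv, against 2.75 to 3.05 in WT Tconv. The KI Treg arrays again did not overlap the other groups, and the KI minus WT Treg difference was 1.86. Over the 16 arrays the Pearson correlation of the probe sets was 0.981, a description that mostly reflects the separation of KI Tregs.

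**Figure D1:**
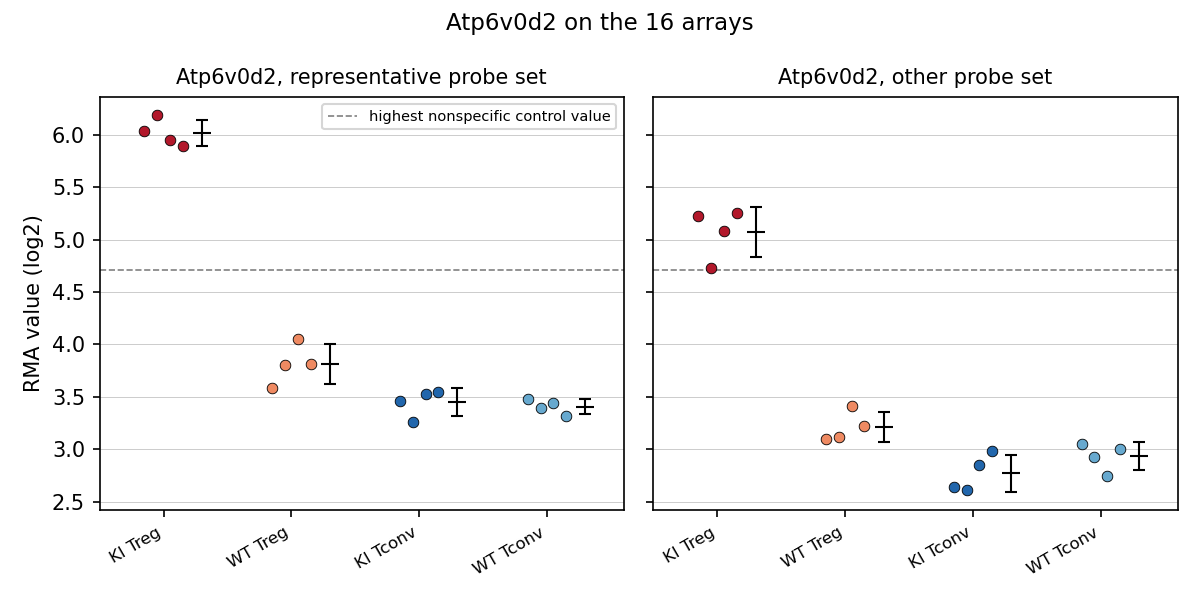
RMA values (log2) of both Atp6v0d2 probe sets, 1 point per array, with the mean and SD of the 4 arrays beside each group. On each probe set the KI Treg points sit above all others, and the dashed line marks the highest nonspecific control value, 4.71.

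In WT cells the 2 cell types differed little in Atp6v0d2. WT Tregs averaged 3.81 and WT Tconv 3.41, a difference of 0.41 (SE 0.143). The WT Treg arrays, at 3.59 to 4.05, did not overlap the WT Tconv arrays, at 3.31 to 3.48, but both ranges are within the background range. The mean of KI Tregs was thus the highest of the 4, and no order is read among the other 3 groups, which lie below the highest nonspecific control value.

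The genotype comparison in Tconv had no part in choosing Atp6v0d2. Here KI Tconv averaged 3.45 and WT Tconv 3.41, a difference of 0.04 with a 95% confidence interval of -0.26 to 0.34 (limma, adjusted p = 0.978). All 8 Tconv arrays lay near background, and none reached the values of KI Tregs. A fall, or a change within the background range, could not have been seen, so nothing is read from this p.

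Array number in the sample titles partly follows genotype. Arrays 4 to 9 are WT, arrays 13 to 23 are KI, and arrays 24 to 27 hold 1 array of each group. Within arrays 24 to 27, Atp6v0d2 read 5.89 in the KI Treg, against 3.81 in the WT Treg, a difference of 2.08 with no replicate. Between the remaining arrays, array number and genotype cannot be told apart.

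Macrophages are known to make Atp6v0d2, so their markers were read on the same arrays. The mean of the 13 measured macrophage and monocyte markers ranged from 3.88 to 5.73 in KI Tregs, against 4.33 to 5.70 in WT Tregs. It ranged from 3.67 to 4.28 in KI Tconv, against 3.91 to 4.41 in WT Tconv. In the order in which values are listed, replicates 1 to 4, the marker means were 4.96, 5.73, 3.88 and 5.16 in KI Tregs, against 4.33, 4.65, 4.61 and 5.70 in WT Tregs. The ranges of KI and WT Tregs overlapped. Several markers were well above background on some arrays, with highest values of 9.81 for Lyz2, 7.60 for C1qa, 6.99 for C1qb, 6.61 for Cd68, 6.33 for C1qc and 6.25 for Adgre1. Of the 13, 4 exceeded 5 on no array, among them Csf1r, the receptor that maintains macrophages, at up to 4.23. Of 14 listed markers 5 were tested. In KI against WT Tregs limma called 0 of them, beside 2.84% of all tested genes, with 1 at an unadjusted p under 0.05. That gene was Ccr2, a chemokine receptor also made by T cells, at a difference of 0.86 (adjusted p = 0.0520).

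When the array of each group with the highest marker mean was left out, a choice made after seeing the data, the KI minus WT Treg difference of Atp6v0d2 was 2.15. The arrays left out were KI Treg replicate 2 and replicate 4 of each other group. WT Tregs then remained on arrays 4 to 6 and KI Tregs on arrays 13, 19 and 26. In these bulk samples, a change in the share of cells and a change in RNA per cell cannot be told apart.

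**Figure D2:**
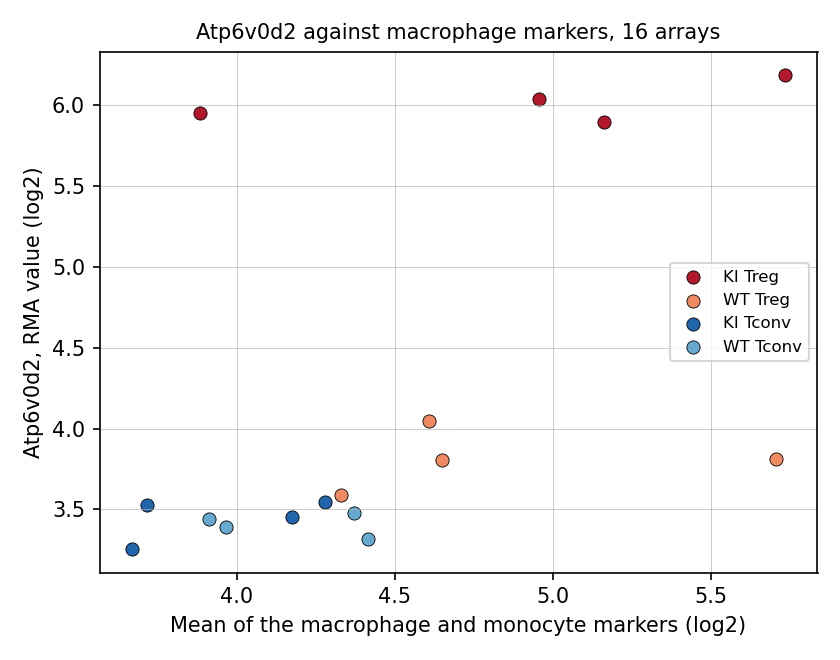
Atp6v0d2 (RMA value, log2) against the mean of the 13 measured macrophage and monocyte markers (log2), 1 point per array, coloured by group. In KI Tregs Atp6v0d2 ran from 5.89 to 6.19 and the marker mean from 3.88 to 5.73. In WT Tregs Atp6v0d2 ran from 3.59 to 4.05 and the marker mean from 4.33 to 5.70. The part of macrophages in the Atp6v0d2 values was not tested.

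The genes that followed Atp6v0d2 most closely were read from 1966 tested genes whose values spanned at least 1 on the log2 scale. The 5 with the highest Pearson correlation over the 16 arrays were Glrx at 0.952, Tubb2a at 0.948, Mafg at 0.943, Egln3 at 0.941 and Arel1 at 0.935. These correlations are descriptions, because the points share the separation of 1 group from the rest. Egln3, a prolyl hydroxylase that acts on hypoxia-inducible factors, averaged 6.96 ± 0.25 in KI Tregs and 5.46 ± 0.37 in WT Tregs, and 4.61 ± 0.27 in KI Tconv and 4.90 ± 0.21 in WT Tconv. Tubb2a, a beta-tubulin, averaged 9.48 in KI Tregs and 8.61 in WT Tregs, and 8.06 in KI Tconv and 7.95 in WT Tconv. Glrx is a glutaredoxin that reduces disulfides, Mafg a small Maf transcription factor and Arel1 a ubiquitin ligase. In all 5 genes the KI Treg mean was the highest of the 4 group means, which their choice by correlation with Atp6v0d2 largely fixed.

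Atp6v0d1, which encodes the broadly made form of subunit d, did not mirror its paralogue. It read 8.88, 8.86, 8.62 and 8.59 in KI Tregs, against 8.60, 8.74, 8.62 and 8.75 in WT Tregs. In KI Tconv it read 8.83, 8.77, 8.79 and 8.89, against 8.83, 8.91, 8.74 and 8.69 in WT Tconv. KI and WT arrays overlapped within each cell type, as did Tregs and Tconv within each genotype, and the KI Treg minus WT Treg difference was 0.06 (95% confidence interval -0.10 to 0.23). Over the 16 arrays its Pearson correlation with Atp6v0d2 was -0.136, a description.

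The a subunits steer the pump to its compartment and line the proton path. Atp6v0a2, the form best known from the Golgi and endosomes, was lower in Tregs of both genotypes. It read 7.77, 7.94, 7.87 and 7.88 in KI Tregs, against 8.44, 8.53, 8.31 and 8.56 in KI Tconv. In WT Tregs it read 7.71, 7.65, 7.78 and 7.81, against 8.26, 8.61, 8.47 and 8.39 in WT Tconv. No Treg array reached any Tconv array in either genotype. The difference was -0.60 in KI cells (SE 0.0807, adjusted p = 8.77e-06, limma) and -0.69 in WT cells (adjusted p = 1.94e-06, limma). Its 3 probe sets all passed the test, each lower in Tregs of both genotypes. Between KI Tregs and WT Tregs the difference was 0.12, with overlapping arrays.

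Atp6v0a1, another a subunit, best known from neurons, stayed under 5 on every array and was not tested. Its representative probe set read 4.50, 4.53, 4.38 and 3.89 in KI Tregs, against 4.03, 3.72, 3.92 and 4.01 in WT Tregs. In KI Tconv it averaged 3.42 and in WT Tconv 3.29. The KI and WT Treg arrays overlapped, and 3 of the 4 KI values were above all 4 WT values. The other 3 Atp6v0a1 probe sets gave KI minus WT Treg differences of 0.21, 0.06 and -0.18, against 0.40 for the first, so they do not share a direction.

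Among the remaining V0 genes, Atp6v0b, a subunit of the proton-carrying ring, overlapped between KI and WT arrays within each cell type, and between Tregs and Tconv within each genotype. It averaged 6.80 ± 0.22 in KI Tregs and 6.69 ± 0.10 in WT Tregs, and 7.02 ± 0.18 in KI Tconv and 6.89 ± 0.20 in WT Tconv. The KI Treg minus KI Tconv difference of -0.22 missed the threshold (adjusted p = 0.161, limma). Atp6v0c, the main ring subunit, was not analysed here.

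**Figure D3:**
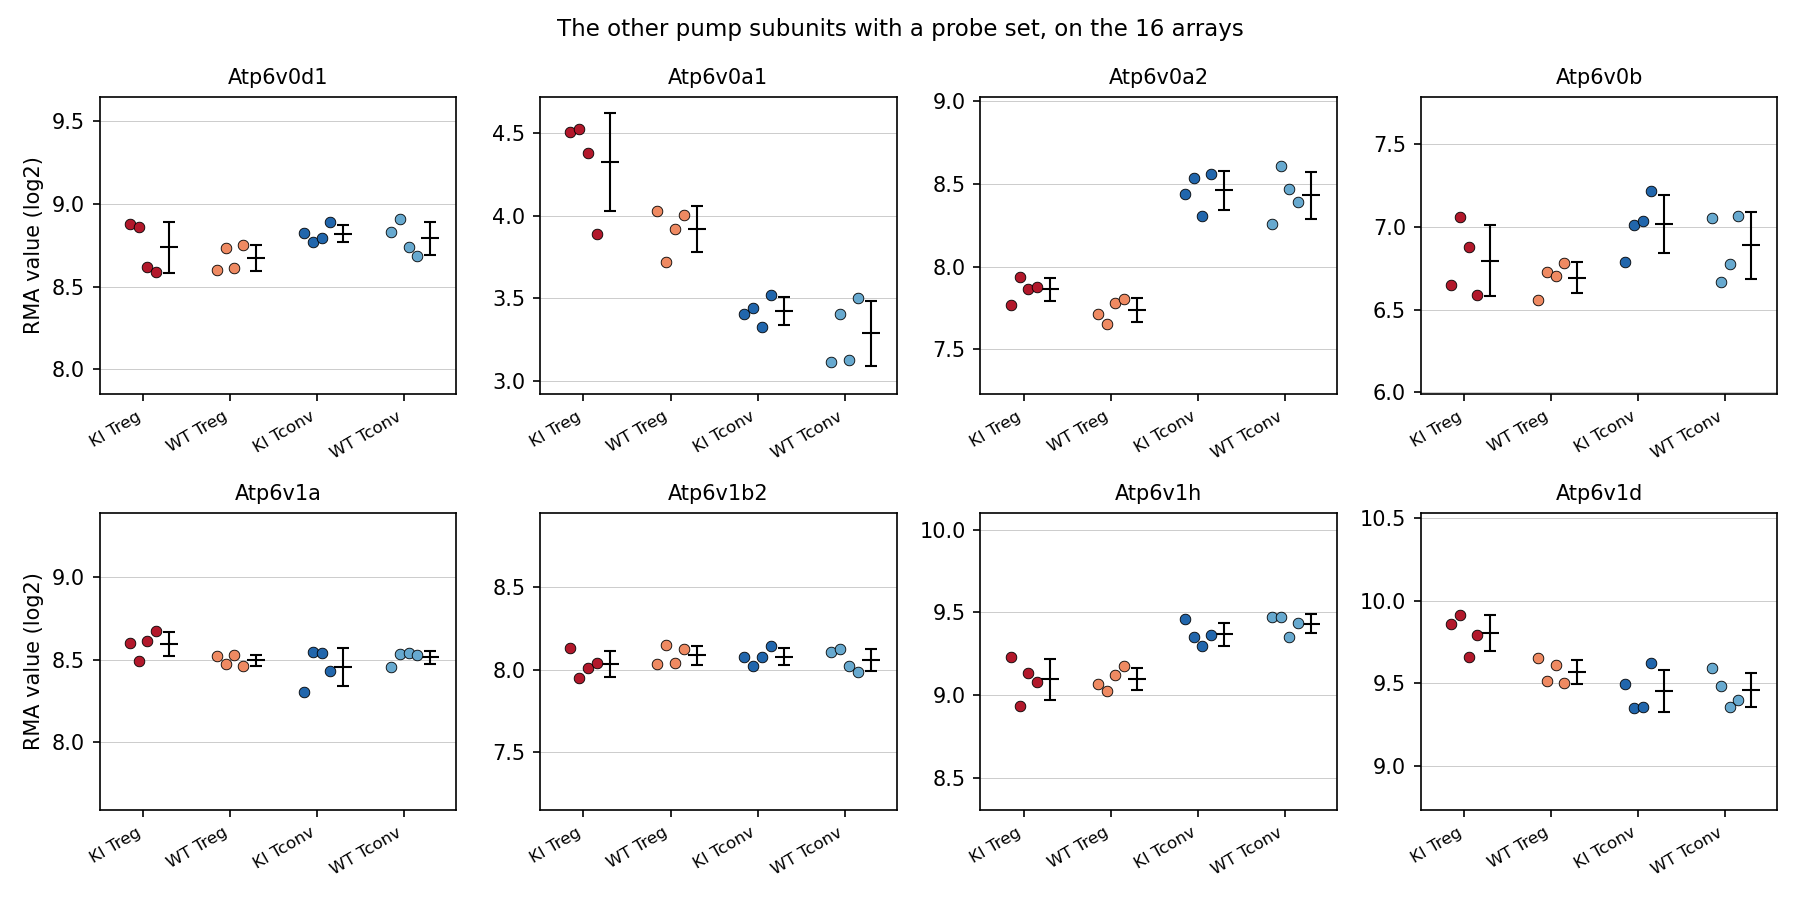
RMA values (log2) of the 8 other members with a probe set, 1 point per array and the mean and SD of 4 arrays beside each group, on axes of equal span. Atp6v0a2 and Atp6v1h separate Tregs from Tconv downwards, Atp6v1d lies highest in KI Tregs, and Atp6v0a1 lies under 5 throughout.

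In the V1 sector, Atp6v1h was lower in Tregs. This subunit regulates the coupling of V1 to V0 and is needed for the pump to turn over ATP. It read 9.23, 8.93, 9.13 and 9.08 in KI Tregs, against 9.46, 9.35, 9.30 and 9.36 in KI Tconv. In WT Tregs it read 9.07, 9.03, 9.12 and 9.17, against 9.47, 9.47, 9.35 and 9.44 in WT Tconv. The cell types did not overlap in either genotype, although the gap was small. The difference was -0.27 in KI cells (SE 0.0663, adjusted p = 0.00311, limma) and -0.33 in WT cells (adjusted p = 0.000654, limma). Between KI Tregs and WT Tregs the 95% confidence interval of the difference ran from -0.14 to 0.14.

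Atp6v1d, part of the central rotor that turns inside V1, was higher in KI Tregs. It read 9.86, 9.91, 9.66 and 9.80 in KI Tregs, against 9.49, 9.35, 9.36 and 9.62 in KI Tconv. In WT Tregs it read 9.65, 9.51, 9.61 and 9.50, against 9.59, 9.48, 9.36 and 9.40 in WT Tconv. The KI Treg arrays lay above those of both KI Tconv and WT Tregs, and the WT groups overlapped. Relative to KI Tconv, Atp6v1d rose by 0.35, or 1.27-fold, in KI Tregs (SE 0.0756, adjusted p = 0.00114, limma), and all 3 of its probe sets passed. In WT cells the Treg minus Tconv difference was 0.11 (adjusted p = 0.275, limma). The KI minus WT Treg difference was 0.24, given as a description, and it was 0.29 within arrays 24 to 27. Within those arrays the KI Treg minus KI Tconv difference was 0.17, with no replicate. Whether the Treg minus Tconv difference of Atp6v1d depended on genotype was not tested.

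The catalytic subunit gene Atp6v1a and its partner Atp6v1b2, which together form the ATP-splitting head, passed in no comparison. Atp6v1a ranged from 8.49 to 8.67 in KI Tregs, against 8.46 to 8.53 in WT Tregs, and from 8.31 to 8.54 in KI Tconv, against 8.45 to 8.54 in WT Tconv. The KI Treg minus KI Tconv difference of Atp6v1a was 0.14 (95% confidence interval 0.00 to 0.28, adjusted p = 0.0993, limma). Atp6v1b2 ranged from 7.95 to 8.13 in KI Tregs, against 8.04 to 8.15 in WT Tregs, and from 8.02 to 8.14 in KI Tconv, against 7.98 to 8.12 in WT Tconv. Its differences in the 4 comparisons lay between -0.05 and 0.03. Of the 3 genes with CACGTG in the promoter windows shown above, Atp6v0b, Atp6v0d1 and Atp6v1a, 0 passed in any comparison with limma. Only Atp6v1a in KI Tregs against KI Tconv had an unadjusted p under 0.05. Over all tested genes 41.1% passed between KI Tregs and KI Tconv and 34.6% between WT Tregs and WT Tconv. Between genotypes 2.84% passed in Tregs and 0.135% in Tconv, so nothing is read from a count over 3 genes. With each array centred on its median, Atp6v0d1 passed in KI Tregs against KI Tconv at -0.17 (adjusted p = 0.0452, limma). It also passed in WT Tregs against WT Tconv at -0.20 (adjusted p = 0.0215, limma). Atp6v0b passed in KI Tregs against KI Tconv at -0.30 (adjusted p = 0.0350, limma). Over all tested genes, centring raised the number called lower from 1620 to 2478 in KI cells and from 1458 to 2403 in WT cells. It cut the number called higher from 1723 to 1383 in KI cells and from 1360 to 1089 in WT cells. Nothing is therefore read from the added lower calls of Atp6v0d1 and Atp6v0b.

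About as large a share of the members as of all tested genes differed between cell types. In KI Tregs against KI Tconv, 3 of 7 members other than Atp6v0d2 passed, 1 higher and 2 lower, while 41.1% of all tested genes passed, 21.2% higher and 19.9% lower. In WT Tregs against WT Tconv, 2 of 7 passed, both lower, while 34.6% of all tested genes passed, 16.7% higher and 17.9% lower. The members' median difference was -0.08 in KI cells and -0.12 in WT cells, beside -0.02 and -0.03 over all tested genes. Those shares are near the background and are not a result about the pump.

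In KI Tregs against WT Tregs, 2.84% of all tested genes passed, 1.99% higher. Of the 7 members other than Atp6v0d2, 0 passed and 1, Atp6v1d, had an unadjusted p under 0.05. Their median difference was 0.10, beside 0.04 over all tested genes. Nothing is read from this count, since the contrast chose Atp6v0d2. In KI Tconv against WT Tconv, 0.135% of all tested genes passed, which is 11 genes. There 0 of 8 members passed with limma and 0 had an unadjusted p under 0.05. The lowest adjusted p among the 8 was 0.887, and the differences ran from -0.07 to 0.13.

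**Figure D4:**
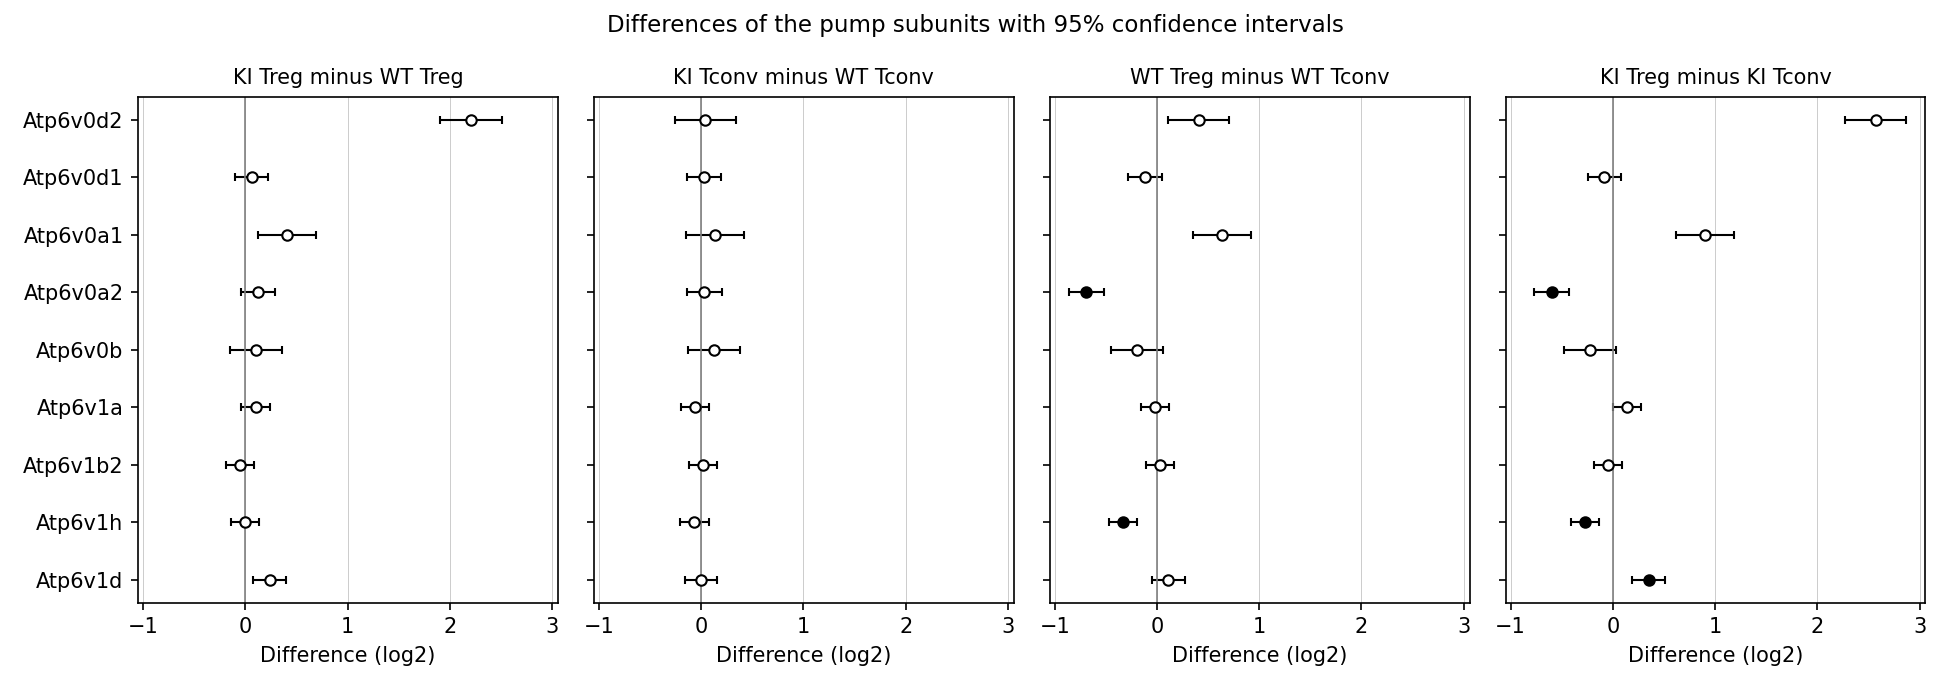
Log2 differences of 9 members in the 4 comparisons, with 95% confidence intervals from limma, positive where the group named first is higher. Filled points passed the test, and Atp6v0d2 and Atp6v0a1 are open where they were not tested. Atp6v0d2 lies at 2.21 and 2.57 in the comparisons that hold KI Tregs, and the other members stay within -0.69 and 0.90.

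Of the other pump subunits, 12 of 15 had a probe set of their own and 7 were tested. The 5 that were not, Atp6v0a4, Atp6v1b1, Atp6v1c2, Atp6v1e2 and Atp6v1g2, are forms best known from kidney, testis, brain or other specialised tissue, and none exceeded 3.56 on any array. Of the 7 tested, 2 passed in each genotype between Tregs and Tconv, 1 higher and 1 lower, which is 28.6%, beside 41.1% (KI) and 34.6% (WT) of all tested genes. Atp6v0e2, a small membrane subunit, rose in Tregs of both genotypes. It read 6.12, 6.35, 5.81 and 5.80 in KI Tregs, against 5.08, 5.15, 4.90 and 5.20 in KI Tconv, a difference of 0.94 (adjusted p = 6.96e-05, limma). In WT Tregs it read 5.95, 6.07, 6.00 and 6.22, against 5.23, 5.28, 4.65 and 5.21 in WT Tconv, a difference of 0.97 (adjusted p = 6.11e-05, limma). The Treg and Tconv arrays did not overlap in either genotype. Within arrays 24 to 27 the KI difference was 0.60.

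Atp6ap2, the accessory subunit also known as the prorenin receptor, fell in Tregs. It averaged 10.3 in KI Tregs and 10.6 in KI Tconv, a difference of -0.31 (adjusted p = 0.00170, limma). In WT Tregs it averaged 10.2, against 10.6 in WT Tconv, a difference of -0.45 (adjusted p = 6.87e-05, limma), and -0.23 within arrays 24 to 27. The a3 subunit Tcirg1, the partner of subunit d2 in osteoclasts, ranged from 6.67 to 7.30 in KI Tregs, against 6.73 to 6.97 in WT Tregs, and passed in no comparison. In KI against WT Tregs and in KI against WT Tconv, 0 of these 7 passed with limma and 0 had an unadjusted p under 0.05. Over all tested genes 2.84% and 0.135% passed, so nothing is read from these counts.

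Among 9 tested genes for assembly and control of the pump, 4 passed in KI Tregs against KI Tconv, 3 higher and 1 lower. In WT Tregs against WT Tconv 3 passed, 2 higher and 1 lower. These shares, 44.4% and 33.3%, are near the 41.1% and 34.6% of all tested genes. Ncoa7, whose product binds the pump and is known to promote acidification, read 9.22, 9.15, 9.10 and 9.45 in KI Tregs, against 7.84, 7.97, 8.01 and 8.18 in KI Tconv. The gap between the cell types was wide, and Ncoa7 was 2.34-fold higher in KI Tregs (difference 1.23, adjusted p = 3.92e-09, limma) and 2.57-fold higher in WT Tregs (difference 1.36, adjusted p = 1.26e-09, limma). Ccdc115, a V0 assembly factor, fell by 0.53 in KI Tregs and by 0.38 in WT Tregs relative to the Tconv of the same genotype (adjusted p = 0.000130 and 0.00301, limma). Meak7, a TLDc-domain protein like Ncoa7, rose by 0.42 in KI Tregs (adjusted p = 0.0364, limma). Oxr1, also of this family, rose by 0.24 in WT Tregs (adjusted p = 0.0377, limma). Meak7 and Oxr1 passed narrowly and missed the threshold under several other settings. In KI against WT Tregs 0 of the 9 passed with limma, beside 2.84% of all tested genes, and 3 had an unadjusted p under 0.05.

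Of the 4 MiT/TFE transcription factor genes, 2 were tested and they moved in opposite directions. Between Tregs and Tconv these 2 passed in each genotype, beside 41.1% (KI) and 34.6% (WT) of all tested genes. Tfe3 read 7.17, 7.33, 6.97 and 6.74 in KI Tregs, against 6.35, 6.45, 6.44 and 6.56 in KI Tconv, and rose by 0.60 (adjusted p = 0.000223, limma). KI Tregs and KI Tconv did not overlap in Tfe3, but within arrays 24 to 27 the difference was 0.18. In WT Tregs Tfe3 rose by 0.36 (adjusted p = 0.0152, limma), a call that was lost without WT Tconv replicate 3 (adjusted p = 0.0501). Mitf averaged 5.37 in KI Tregs and 5.81 in KI Tconv, and fell by 0.44 (adjusted p = 0.0153, limma), but the call was lost without arrays 24 to 27 (difference -0.34, adjusted p = 0.0741) and without KI Treg replicate 4 (adjusted p = 0.0515). In WT cells Mitf averaged 5.30 in Tregs and 5.80 in Tconv, and fell by 0.50 (adjusted p = 0.00773, limma). Neither passed in KI against WT Tregs, where 2.84% of all tested genes passed, and 0 of the 2 had an unadjusted p under 0.05.

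Lysosomal genes, whose products work in the compartment the pump acidifies, included 3 calls in KI against WT Tregs. Of 30 tested, 3 passed, all higher, which is 10.0%, beside 2.84% of all tested genes passing and 1.99% passing as higher. Another 5 had an unadjusted p under 0.05 without passing. Whether the list differs from other genes was not tested. The median difference of the 30 was 0.12, beside 0.04 over all tested genes. Lgmn, the protease legumain, read 7.43, 7.63, 7.17 and 7.22 in KI Tregs, against 6.25, 5.85, 6.69 and 6.63 in WT Tregs. Ctsl, the protease cathepsin L, read 8.19, 7.77, 7.25 and 7.87 in KI Tregs, against 6.62, 6.77, 6.89 and 7.02 in WT Tregs. Glb1, a lysosomal beta-galactosidase, read 7.25, 7.13, 6.68 and 6.78 in KI Tregs, against 5.92, 6.56, 6.37 and 6.03 in WT Tregs. KI and WT Tregs did not overlap in any of the 3.

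The differences were 1.01 for Lgmn (SE 0.181, adjusted p = 0.00502, limma), 0.95 for Ctsl (adjusted p = 0.00412, limma) and 0.74 for Glb1 (adjusted p = 0.0133, limma). Within arrays 24 to 27 they were 0.59, 0.86 and 0.75. With 3 blocks of array numbers as a term, the differences were 0.91, 0.94 and 0.90. None of the 3 kept its call, at adjusted p of 0.257, 0.117 and 0.127 (limma). In that fit only the block of arrays 24 to 27 holds both genotypes. Calls over all tested genes fell from 2.84% to 0.356%, so nothing is read from the lost calls. Macrophages also express these proteases. Without the array of each group with the highest macrophage marker mean, the differences were 1.01 for Lgmn (adjusted p = 0.0155, limma), 1.01 for Ctsl (adjusted p = 0.0103) and 0.62 for Glb1 (adjusted p = 0.125).

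Between cell types the lysosomal genes went both ways. In KI Tregs against KI Tconv 11 of 30 were higher and 3 lower, and in WT Tregs against WT Tconv 9 were higher and 5 lower, which as shares of the list is 46.7% in each, beside 41.1% of all tested genes in KI cells and 34.6% in WT cells. The Treg minus Tconv difference of Lgmn was 2.26 in KI cells (adjusted p = 1.08e-08, limma) and 0.91 in WT cells (adjusted p = 0.000669, limma). Ctsl was higher by 1.51 in KI Tregs and by 0.73 in WT Tregs (adjusted p = 6.95e-07 and 0.00213, limma). Sgsh, which degrades heparan sulfate, was lower in Tregs, with differences of -0.92 in KI cells (adjusted p = 4.47e-06, limma) and -0.72 in WT cells (adjusted p = 8.49e-05, limma). Of 5 tested macrophage markers, 4 were called in KI Tregs against KI Tconv, beside 41.1% of all tested genes. In WT Tregs against WT Tconv 2 were called, beside 34.6%. All of these calls were higher in Tregs. Those in WT cells were Ccr2, also made by T cells, and C1qa. C1qa, C1qc and Cd68 passed the filter through Treg arrays alone, so nothing is read from their calls. The untested markers went both ways. The part of macrophage markers in the lysosomal values was not tested.

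**Figure D5:**
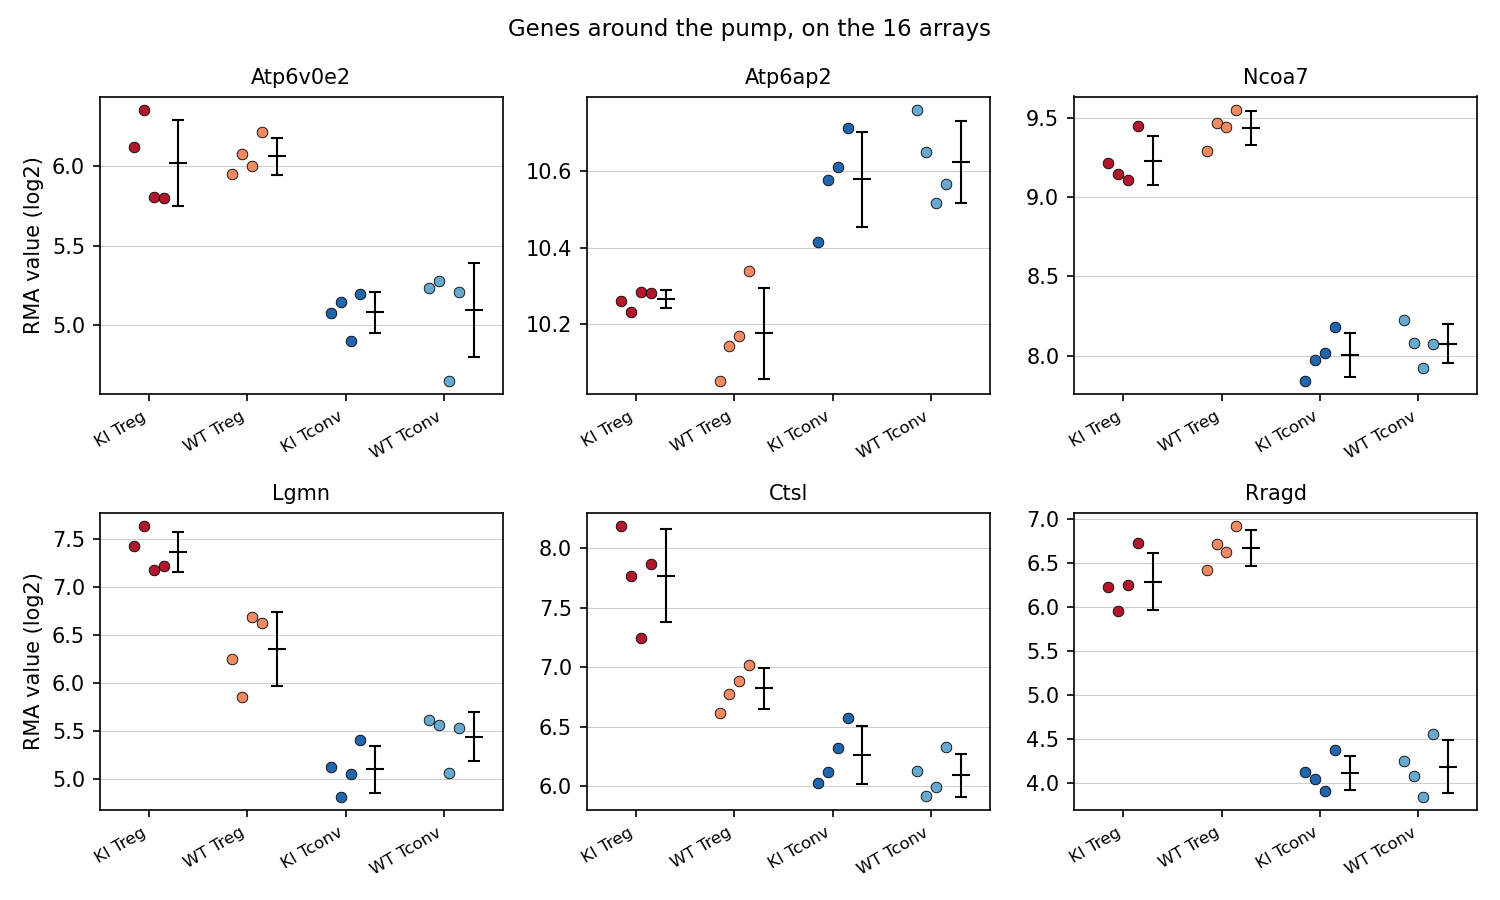
RMA values (log2) of 6 genes of the pump, its control or the lysosome, 1 point per array, with the mean and SD of 4 arrays beside each group, each panel on its own axis. Sgsh, Ccdc115 and Itgb3, lower in Tregs, are not shown. Atp6v0e2, Ncoa7, Lgmn, Ctsl and Rragd are higher in Tregs of both genotypes, Atp6ap2 is lower, and Lgmn and Ctsl are highest in KI Tregs.

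The pump's partners in lysosomal mTORC1 signalling, 15 of which were tested, gave 3 higher and 3 lower genes in KI Tregs against KI Tconv, and 2 of each in WT Tregs against WT Tconv. These 6 of 15 and 4 of 15 genes stand beside 41.1% and 34.6% of all tested genes. Rragd, a Rag GTPase that recruits mTORC1, read 6.23, 5.96, 6.25 and 6.73 in KI Tregs, against 4.12, 4.04, 3.91 and 4.37 in KI Tconv. In WT Tregs it read 6.42, 6.72, 6.63 and 6.92, against 4.25, 4.08, 3.84 and 4.56 in WT Tconv. All 8 Treg arrays were above background and all 8 Tconv arrays near it, with differences of 2.18 in KI cells and 2.49 in WT cells. Rragd is among the genes counted above. It passed the filter through the Treg arrays alone, so these differences are descriptions and carry no test. Lamtor4, of the Ragulator scaffold, rose by 0.83 in KI Tregs and by 0.67 in WT Tregs (adjusted p = 8.86e-06 and 0.000116, limma). Lamtor5, of the same scaffold, rose by 0.52 in KI Tregs (adjusted p = 0.000510, limma), but by 0.07 within arrays 24 to 27. Lamtor3, another member of it, fell by 0.35 in WT Tregs (adjusted p = 0.00301, limma). In KI against WT Tregs, 0 of the 15 passed with limma, beside 2.84% of all tested genes, and 3 had an unadjusted p under 0.05.

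Genes of osteoclasts and cell fusion, the setting in which Atp6v0d2 is best known, were mostly near background. Of 12 listed, 10 had a probe set and 3 were tested. In KI against WT Tregs 0 of the 3 passed with limma, beside 2.84% of all tested genes, and 1 had an unadjusted p under 0.05. Between Tregs and Tconv, 2 of the 3 passed in KI cells and 1 in WT cells, all lower. Those counts stand beside 41.1% and 34.6% of all tested genes. Itgb3, the integrin beta 3 chain, read 5.13, 5.41, 4.88 and 5.09 in KI Tregs, against 7.51, 7.57, 7.58 and 7.45 in KI Tconv, a wide separation in the direction opposite to Atp6v0d2. The difference was -2.40 in KI cells (adjusted p = 1.12e-10, limma) and -2.06 in WT cells (adjusted p = 1.37e-09, limma). Acp5, the tartrate-resistant acid phosphatase, was well above background, at means of 10.8 in KI Tregs and 11.2 in KI Tconv. It fell by 0.38 in KI Tregs relative to KI Tconv (adjusted p = 0.0143, limma), with overlapping arrays. The call was lost without KI Treg replicate 3 (difference -0.25, adjusted p = 0.0512) or KI Tconv replicate 4 (adjusted p = 0.0512). In KI against WT Tconv, 0 genes passed in each of these lists, beside 0.135% of all tested genes, and 0 had an unadjusted p under 0.05. In that comparison 3 of 7 Treg markers did pass. Foxp3, Ikzf2 and Nrp1 were lower in KI Tconv than in WT Tconv (differences -0.93, -0.83 and -0.77, adjusted p = 0.0104, 5.80e-06 and 0.00808, limma). Foxp3 lay near background in both Tconv groups, at up to 3.78 in KI and 4.96 in WT, so nothing is read from its difference. The part of these 3 markers in the Treg minus Tconv differences of each genotype was not tested.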

How the data were processed

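The deposited values are on a log2 scale, 1 per probe set and array, and came from RMA in Partek 6.5, per the submitters' processing notes. RMA corrects background, equalises the arrays' distributions and summarises each probe set, so small differences shared by most genes are removed. Its options are not given in the sources used here. Per the labels' protocols, TRIZOL was used for the RNA and the Affymetrix 3' IVT Express kit for labelled cRNA.

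Of 45141 probe sets, 104 were controls, 28898 matched 1 gene, 551 several and 15588 none. Among those with 1 gene, 28689 were named through Entrez identifiers and 152 through symbols of RefSeq (GRCm38.p6), and 57 kept the array annotation's symbol. Each gene was represented by its probe set with the highest mean, and genes above 5 on at least 4 arrays were kept. Using limma 3.58.1 (R 4.3.3), group means were fitted on the 16 arrays together, with a variance trend. Two-sided p-values of the 8139 genes were adjusted after Benjamini and Hochberg, with 0.05 as the threshold. The code was tested on simulated data. Precision is set by the small number of arrays.

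The members and gene lists were chosen with earlier results of these data known. Named genes are the members, up to 3 passing genes of each pathway list per comparison with the largest differences, the 5 genes most correlated with Atp6v0d2, and Foxp3. Markers of macrophages and other cells, Tcirg1, Ikzf2, Nrp1 and the subunits near background were named after their values were seen. A probe set that matched both Atp6v1h and Ap3d1 was left out. Alternatives changed the filter, the variance trend, the probe set rule, the centring, the array number blocks and the arrays used.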

Additional observations from a re-analysis of the deposited data

Results flagged for a closer look

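Within groups, 3 of 80 sets of 4 arrays, over all 20 member probe sets, held an array far from the other 3 by Dixon's test at its 95% critical value. Chance gives about 1 in 20 such sets, and no explanation was tested. On 1 of the 4 Atp6v0a1 probe sets, KI Tconv replicate 4 read 3.46, against 3.81 for the nearest other array of the group. On 1 of the 3 Atp6v0b probe sets, WT Tconv replicate 3 read 5.52, against 5.81 for the nearest, and another probe set represented the gene. On the representative Atp6v1a probe set, WT Tconv replicate 1 read 8.45, against 8.53 for the nearest.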

How the results depend on the processing

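The Atp6v0d2 difference between KI and WT Tregs stayed between 2.13 and 2.28 when single arrays were left out, but without any 1 KI Treg array the gene failed the filter and was read from the fit without a filter. The Atp6v0a2, Atp6v1h and Atp6v1d calls held under every alternative with a test. Member calls between KI Tregs and KI Tconv were 3 and became 5 when each array was centred on its median, with Atp6v0d1 (adjusted p = 0.0452) and Atp6v0b (0.0350) added, both lower. Over all tested genes, centring raised the share called there from 41.1% to 47.5%, and the genes called lower from 1620 to 2478. The genes called higher fell from 1723 to 1383. With each probe set fitted on its own, 7 probe sets passed there, and in WT Tregs against WT Tconv 4 passed in place of 2 genes. Centring also called Atp6v0d1 in WT Tregs against WT Tconv (adjusted p = 0.0215), where the share of all tested genes called rose from 34.6% to 42.9%. There the genes called higher fell from 1360 to 1089. Leaving out single arrays left the member counts at 3 and 2.

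Uncalled values near 0 changed sign, and the cause was not tested. In KI against WT Tconv, with probe sets averaged, Atp6v0d2 was -0.0597 and Atp6v0a2 -0.0170. Without arrays 24 to 27, Atp6v0d1 was -0.0304, Atp6v0a2 -0.0171 and Atp6v1b2 -0.0268. Leaving out the arrays highest in macrophage markers gave the same values, because in Tconv it drops the same arrays, 25 and 27. With 3 array number blocks, Atp6v0b was -0.0067 and Atp6v1d 0.139. On other probe sets, Atp6v0a2 was -0.125 and Atp6v0b -0.0261. Leaving out single arrays gave ranges that crossed 0 for Atp6v0d1 (-0.0073 to 0.0672), Atp6v0a2 (-0.0264 to 0.0887), Atp6v1b2 (-0.0058 to 0.0410) and Atp6v1d (-0.0567 to 0.0429). In WT Tregs against WT Tconv, Atp6v1b2 was -0.0533 with centring and -0.0113 without arrays 24 to 27. Leaving out the marker-high arrays drops the same WT arrays and gave the same value. In KI Tregs against KI Tconv Atp6v1b2 was 0.0026 without the marker-high arrays.

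Over all genes, calls in KI against WT Tregs numbered 231. They were 29 with 3 array number blocks (4 to 9, 13 to 23, 24 to 27), 410 without arrays 24 to 27, 112 without the marker-high arrays, and 90 to 558 when single arrays were left out, lowest without KI Treg replicate 1 and highest without KI Treg replicate 4. In KI against WT Tconv they numbered 11, and under the same settings in the same order were 5, 105, 44 and 7 to 65, lowest without KI Tconv replicate 2 and highest without KI Tconv replicate 4. Of the lysosomal calls in KI against WT Tregs, 3 became 0 with the 3 blocks and 5 without KI Treg replicate 4. Glb1 missed the threshold without KI Treg replicate 1 or 2 or without WT Treg replicate 1 (adjusted p = 0.0693, 0.0523 and 0.0609). Oxr1 missed it at adjusted p up to 0.246 and Meak7 at up to 0.143. No paired analysis was possible because the labels give the groups no shared replicate numbers.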
